A study of Mus musculus with 37 samples.

Results

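Collagens and the enzymes that modify, fold, cleave and cross-link them were followed in fibroblasts grown with or without macrophages. The members were all genes of the fibroblast count table whose symbol names a collagen chain, a lysyl oxidase (Lox, Loxl1 to Loxl4), a lysyl hydroxylase (Plod1, Plod2, Plod3) or a prolyl 4-hydroxylase catalytic subunit (P4ha1, P4ha2, P4ha3), together with Serpinh1, Pcolce, Bmp1 and Adamts2. This gave 51 of 14028 genes, 36 of them collagen chains and 15 enzymes or helpers, and 36 of the 51 were also listed among the 11965 genes of the macrophage table. Fibroblasts came from lung, mammary fat pad and mesometrial fat of BALB/c females aged 8 weeks, were depleted of EpCAM+ and CD45+ cells, and were then grown for 7 days on collagen I-coated plates either together with bone marrow-derived macrophages (co-culture) or alone (mono-culture). After culture they were sorted live as F4/80- CD11b- cells. Per the labels' protocols, tissue of 2 females was pooled for each mammary and fat replicate, and the labels name the sorted fibroblast samples non-immune stromal cells. Lung fibroblasts gave 3 co-culture and 3 mono-culture libraries, mammary fibroblasts 5 and 5, and fat fibroblasts 3 and 2. Macrophages, differentiated in medium conditioned by L929 cells and sorted as F4/80+ CD11b+ cells, gave 4 libraries each after co-culture with fat, lung and mammary fibroblasts and 4 at day 0, before culture. Because the control macrophages were taken at day 0, co-culture and time in culture cannot be told apart in them.

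Collagen chains assemble in threes in the endoplasmic reticulum. Prolyl and lysyl hydroxylases modify the nascent chains, the chaperone HSP47 (Serpinh1) accompanies the folded molecule, Adamts2 and Bmp1, which is enhanced by Pcolce, remove the terminal propeptides outside the cell, and lysyl oxidases cross-link the finished fibrils. Fibroblasts are the main source of the fibril-forming types I, III and V and of type VI microfibrils, whereas type IV forms the network of basement membranes.

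Counts of 3-prime transcript ends were scaled to one common library total, the unit written CPM, and the fibroblast libraries held 3304605 to 7487355 counts and the macrophage libraries 3040103 to 6223115. Such counts do not grow with transcript length, so CPM of different genes rank transcript ends, not lengths of RNA. The third lung mono-culture library is lung by its title and mammary fat pad by its tissue label. It was kept with lung. Its mean over Tbx4, Tbx5, Foxf1 and Tcf21, factors of lung mesenchyme, was 4.29 log2 CPM, the lowest of the lung fibroblast libraries. Lung co-cultures had 5.14 to 5.29 and lung mono-cultures up to 5.10, and no mammary library exceeded 1.68. Mammary co-culture libraries 2 and 4 stood apart from libraries 1, 3 and 5 of their group, with correlations of 0.807 to 0.903 against 0.945 to 0.977 among libraries 1, 3 and 5. Transcripts of 6 mesothelial genes averaged at least 7.14 log2 CPM in every lung and fat fibroblast library and 0.23 to 3.32 log2 CPM in the mammary libraries. The 16 macrophage markers summed to 3.24% to 4.97% of their level in the macrophages of the same co-culture in lung co-cultured fibroblasts, 1.08% to 3.09% in mammary and 0.918% to 5.28% in fat. In mono-cultures the share was at most 1.30%. In bulk samples, fewer cells of a type and less RNA per cell cannot be told apart.

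The collagen chains together made up 1.59% ± 0.355 of all counts in lung co-cultures and 1.42% ± 0.384 in lung mono-cultures (SD, n = 3 each). They took 2.90% ± 0.863 in mammary co-cultures and 2.11% ± 0.148 in mammary mono-cultures (SD, n = 5 each), and 1.43% ± 0.135 and 1.28% ± 0.110 in fat co-cultures and mono-cultures (SD, n = 3 and 2). The ranges of co-culture and mono-culture overlapped in all 3 organs. Type I chain Col1a2 averaged 10701 ± 2220.4 CPM in mammary co-cultures, and type III chain Col3a1 10479 ± 6175 CPM. The 15 enzymes and helpers took 0.686% ± 0.0367 in lung co-cultures against 0.490% ± 0.0919 in mono-cultures, without overlap, and 1.28% ± 0.222 against 1.09% ± 0.0481 in mammary fibroblasts, with overlap.

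In lung fibroblasts, co-culture was accompanied by more mRNA of a prolyl hydroxylase, a lysyl hydroxylase and a minor collagen. Of the 45 members that passed the filter on low counts, 3 were called higher and 0 lower at an edgeR adjusted p under 0.05, or 6.67%, beside 1.31% of all 12421 genes tested (1.17% higher, 0.145% lower). The median log2 fold change was 0.47 over the 45 members and -0.03 over all genes tested. A list of 14 non-collagen fibroblast markers averaged 8.14 to 8.72 log2 CPM in lung co-cultures and 7.47 to 8.10 in lung mono-cultures. Whether the members' shift is particular to collagen genes was not tested. The 6 members not tested (Col10a1, Col23a1, Col4a4, Col4a6, Col6a6 and Col9a2) had group means of at most 1.93 CPM in the fibroblast groups.

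P4ha2, a catalytic subunit of prolyl 4-hydroxylase, the enzyme whose product stabilises the triple helix, had 138, 200.1 and 199.7 CPM in lung co-cultures, against 66.5, 62.8 and 39.1 CPM in lung mono-cultures. Every co-culture library lay above every mono-culture library. The log2 fold change was 1.68 ± 0.30 (SE; edgeR adjusted p = 0.00565). Plod1, which hydroxylates lysines of the helix, had 349, 369 and 373 CPM in co-cultures, against 143, 189.7 and 132 CPM in mono-cultures, again without overlap (1.23 ± 0.26, edgeR adjusted p = 0.0178). Col28a1, a chain of the minor type XXVIII collagen that is best known from peripheral nerve, stood at 20.5, 17.4 and 28.2 CPM in co-cultures and at 3.85, 3.69 and 2.33 CPM in mono-cultures (2.74 ± 0.43, edgeR adjusted p = 0.00197). Macrophages co-cultured with lung fibroblasts held 456 ± 14.1 CPM of Plod1 and 60.3 ± 4.15 CPM of P4ha2 (SD, n = 4), and Col28a1 is not listed in the macrophage table. P4ha2 was thus lower in these macrophages than in the co-cultured fibroblasts, whereas Plod1 was of like level in both. The part of macrophage RNA in the Plod1 and P4ha2 values, beside macrophage markers at 3.24% to 4.97% of their macrophage level, was not tested. Without the third mono-culture library, whose labels conflict, Col28a1 alone was called (edgeR adjusted p = 0.0243), and P4ha2 and Plod1 had an adjusted p of 0.0554 and 0.133. Plod1 also lost its call without lung co-culture library 2, lung co-culture library 3 or lung mono-culture library 1, and 2 members were then called.

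The promoter-side sequence of P4ha2 and Plod1, the enzymes called in lung co-culture, is shown next to that of P4ha1, the sister subunit of P4ha2, and of Col1a2, the chain with the highest CPM in lung fibroblasts, neither of which was called there. Each run ends at the base before the first annotated base of its gene, is written 5′ to 3′ on the gene's own strand, and comes from RefSeq on GRCm38.p6 (mm10). Capitals mark ACGTG or GCGTG on either strand, the core of the element bound by hypoxia-inducible factors. The stretches are chr11:54100674-54100923 (plus strand) for P4ha2, chr10:59323046-59323196 (plus strand) for P4ha1, chr4:147936777-147937026 (minus strand) for Plod1 and chr6:4505368-4505617 (plus strand) for Col1a2.
P4ha2: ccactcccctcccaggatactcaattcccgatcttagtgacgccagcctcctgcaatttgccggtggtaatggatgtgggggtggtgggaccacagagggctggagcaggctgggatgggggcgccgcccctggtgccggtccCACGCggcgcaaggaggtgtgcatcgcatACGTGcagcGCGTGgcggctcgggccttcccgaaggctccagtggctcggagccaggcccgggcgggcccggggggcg
P4ha1: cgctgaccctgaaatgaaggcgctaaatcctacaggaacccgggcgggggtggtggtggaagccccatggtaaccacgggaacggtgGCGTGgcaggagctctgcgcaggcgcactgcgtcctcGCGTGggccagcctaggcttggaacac
Plod1: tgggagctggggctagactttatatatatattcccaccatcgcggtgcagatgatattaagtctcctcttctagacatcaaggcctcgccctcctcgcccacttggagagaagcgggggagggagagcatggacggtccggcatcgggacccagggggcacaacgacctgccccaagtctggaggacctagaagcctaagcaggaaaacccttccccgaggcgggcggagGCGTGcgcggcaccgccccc
Col1a2: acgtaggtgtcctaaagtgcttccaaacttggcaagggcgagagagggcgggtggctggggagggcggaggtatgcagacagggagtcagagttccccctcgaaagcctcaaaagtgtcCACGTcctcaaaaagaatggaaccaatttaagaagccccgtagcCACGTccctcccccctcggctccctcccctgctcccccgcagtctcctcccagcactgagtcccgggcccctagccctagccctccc
P4ha2 carried 1 ACGTG and 2 GCGTG, P4ha1 2 GCGTG, Plod1 1 GCGTG, and Col1a2 2 ACGTG. Of all 32851 windows of 250 bases before a RefSeq start, 38.6% held at least 1 of these letter runs, and 17 of the 41 windows of the 39 members with an entry did. Col1a2 and P4ha1, which were not called, held them too, and a match describes the sequence only.

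**Figure D1:**
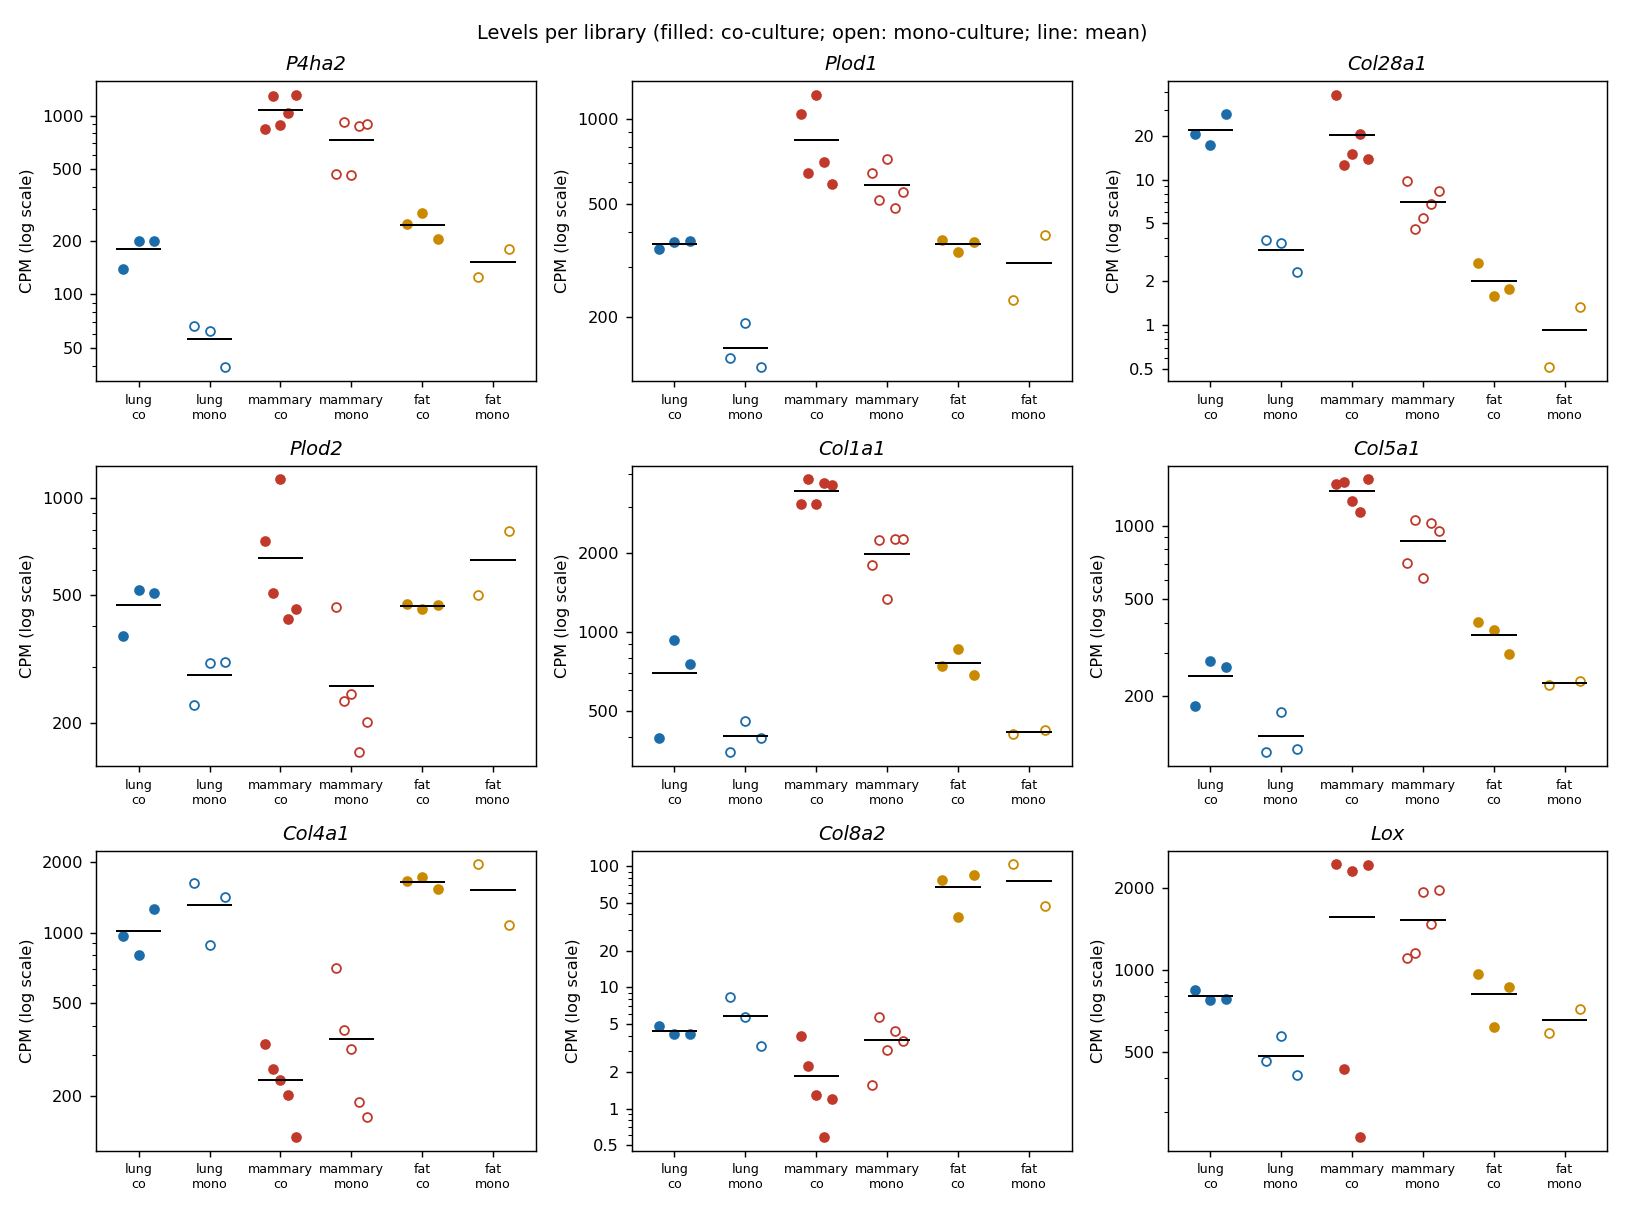
Levels of 9 members in every fibroblast library, in CPM on log axes, with filled points for co-culture, open points for mono-culture and a line at the group mean. P4ha2 and Plod1 show separate lung co-culture and mono-culture values, Col4a1 lies lowest in mammary fibroblasts, Col8a2 lies highest in fat, and mammary co-culture libraries 2 and 4 sit at 432 and 243 CPM of Lox, apart from the other 3 of their group.

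Other enzymes and chains of lung fibroblasts lay higher in co-culture without passing the threshold. How many of all genes lack overlap between groups this small was not counted in any comparison, so non-overlap is only a description. Pcolce, the enhancer of propeptide removal, had 709, 784 and 735 CPM in co-cultures and 494, 514 and 354 CPM in mono-cultures, without overlap (0.71 ± 0.18, edgeR adjusted p = 0.0528). Col12a1, a chain that associates with the surface of fibrils, had 32.5, 40.1 and 41.0 CPM against 19.7, 9.05 and 7.97 CPM (1.64 ± 0.48, adjusted p = 0.119). Plod2 and Plod3, the other lysyl hydroxylases, also did not overlap between cultures, at 467 ± 82.1 against 282 ± 47.1 CPM and 293 ± 11.7 against 224 ± 31.2 CPM, with adjusted p of 0.569 and 0.264. Lox, the founding lysyl oxidase, had 845, 776 and 784 CPM against 464, 574 and 412 CPM, without overlap, yet its fit carried a wide error (0.73 ± 0.58, adjusted p = 0.849). Loxl1, Loxl2, Bmp1, Adamts2, P4ha1, P4ha3 and Serpinh1 gave 0.26 to 0.97 with adjusted p of 0.509 to 0.803, and all 7 overlapped between cultures. The main chains gave small differences: Col1a1 0.79 ± 0.25 (adjusted p = 0.154), Col1a2 0.33 ± 0.23, Col3a1 0.14 ± 0.51 and Col6a1 -0.02 ± 0.25. Basement membrane chains Col4a1 (-0.38 ± 0.43), Col4a2 (-0.18 ± 0.30) and Col18a1 (0.09 ± 0.79) also overlapped between cultures. DESeq2 called 7 members in lung, adding Col12a1, Col1a1, Col5a1 and Pcolce, beside 2.35% of all genes it adjusted. Of the 45 members, 10 had an unadjusted edgeR p under 0.05 and 37 had a positive log2 fold change, beside 9.46% and 45.6% of all genes tested.

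In mammary fibroblasts, co-culture was accompanied by higher levels of 5 collagen chains and 2 enzymes, and no member was lower. The 7 calls were Col28a1, Plod2, Col1a1, Col6a2, Loxl2, Col5a1 and Col12a1, or 15.6% of the 45 members, beside 3.65% of all genes (2.36% higher, 1.29% lower). The members' median log2 fold change was 0.42, against 0.00 over all genes. Same-numbered mammary libraries deviated together, as did some with different numbers. With the number as a block 12 members were called higher, adding Loxl1, Col16a1, Plod1, P4ha1 and Adamts2. Of all genes, 6.89% were called in that fit (4.12% higher). All 12 were higher in co-culture in 5 of 5 same-numbered pairs, but the block fit chose them on these same pairs, so this adds no support. Bmp1, Col15a1, Col1a2, Col6a1, Loxl4 and P4ha2, which are not among the 12, were also higher in 5 of 5. The share of all genes higher in 5 of 5 was not counted, and pairing by number is not settled. Tallies of pairs are therefore only a description.

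Among the fibrillar chains, Col1a1, the principal chain of type I collagen, had 3069, 3805, 3070.1, 3677 and 3622 CPM in mammary co-cultures, against 1806, 2240.0, 1331, 2269 and 2256 CPM in mono-cultures. The groups did not overlap, and the log2 fold change was 0.80 ± 0.19 (edgeR adjusted p = 0.024; 0.82 and 0.00703 with the block). Col5a1, a chain that nucleates type I fibrils, had 1138 to 1546 CPM in co-cultures and 609 to 1056 CPM in mono-cultures (median 1483 and 947), without overlap (0.68 ± 0.17, adjusted p = 0.0333). Col1a2, the partner of Col1a1 in type I, averaged 10701 ± 2220.4 CPM against 7797 ± 929.8 CPM and was not called (0.46 ± 0.18, adjusted p = 0.178). Col3a1, of the fine fibrils of soft tissue, ranged from 3824 to 17308 CPM in co-cultures and from 6328 to 9588 CPM in mono-cultures (0.48 ± 0.40, adjusted p = 0.605).

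Type VI chains differed among themselves. Col6a2 had 1522, 1259, 1096, 1044 and 1546 CPM in mammary co-cultures, against 895, 962, 548, 775 and 919 CPM in mono-cultures, without overlap (0.66 ± 0.16, edgeR adjusted p = 0.0299). Col6a3, the largest chain of the microfibril, averaged 424 ± 108 CPM in co-cultures and 421 ± 59.0 CPM in mono-cultures (0.01 ± 0.28, adjusted p = 0.993). Col6a1 was not called (0.58 ± 0.19, adjusted p = 0.11). The log2 ratio of Col6a3 over Col6a2 accordingly ran from -2.05 to -1.17 in co-cultures and from -1.24 to -0.57 in mono-cultures.

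Among the enzymes, Plod2, which hydroxylates the telopeptide lysines that seed stable cross-links, had 735, 507, 1145, 422 and 453 CPM in mammary co-cultures, against 461, 235, 246, 162 and 202 CPM in mono-cultures. Only mono-culture library 1 reached into the co-culture range, and that library also had the highest macrophage marker mean of the mono-cultures, 3.88 log2 CPM against 0.42 to 1.08 in the other 4. The log2 fold change of Plod2 was 1.32 ± 0.28 (edgeR adjusted p = 0.0136). Macrophages co-cultured with mammary fibroblasts held 4.24 ± 1.40 CPM of Plod2, far below the fibroblast level. Loxl2, a lysyl oxidase that acts on type IV collagen among others, had 341, 249, 442, 238 and 289 CPM against 259, 167, 187, 149 and 124 CPM (0.82 ± 0.21, adjusted p = 0.0316); mono-culture library 1 again overlapped the co-cultures. Col28a1 had 12.6 to 38.3 CPM in co-cultures and 4.55 to 9.85 CPM in mono-cultures (1.53 ± 0.31, adjusted p = 0.00991), and Col12a1 106 to 296 CPM and 41.2 to 107 CPM, with a narrow overlap (1.27 ± 0.35, adjusted p = 0.0495). Loxl1, which cross-links elastin, had 818 to 977 CPM in co-cultures and 636 to 736 CPM in mono-cultures, without overlap (0.42 ± 0.13, adjusted p = 0.0775; 0.0301 with the block). P4ha2 (0.56 ± 0.22, adjusted p = 0.202) and Plod1 (0.52 ± 0.20, adjusted p = 0.161), both called in lung, overlapped between the mammary cultures. The general helpers Serpinh1 (0.21 ± 0.14, adjusted p = 0.504) and Pcolce (0.04 ± 0.14, adjusted p = 0.936) were not called.

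Of the basement membrane chains none passed the threshold, and their directions differed. Col4a1 had 134 to 334 CPM in mammary co-cultures and 163 to 706 CPM in mono-cultures (-0.59 ± 0.33, edgeR adjusted p = 0.406), and it was higher in co-culture in 1 of 5 pairs. Col4a2 was higher in 0 of 5 (-0.49 ± 0.24, adjusted p = 0.305). Col18a1 and Col4a5 were each higher in 3 of 5 pairs, with a median log2 ratio of 0.48 and 0.18. Col15a1, a collagen of the zone around basement membranes, had 53.5 to 171 CPM and 6.74 to 100.5 CPM and was higher in 5 of 5 pairs (1.36 ± 0.56, adjusted p = 0.222).

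The mammary calls depended on which libraries entered. Leaving out 1 library at a time gave 2 to 7 calls, and Col28a1 and Plod2 stayed called each time. The count fell to 2 without mono-culture library 3, to 3 without co-culture library 1, and to 4 without co-culture library 5, mono-culture library 4 or mono-culture library 5. In a fit of the 2 mammary groups alone, only Col1a1 was called. Leaving out co-culture libraries 2 and 4 together gave 6 calls, and leaving out libraries 2 and 4 of both cultures gave 2, Col5a1 and Col6a1.

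Some chains lay far apart in those co-culture libraries. Lox had 432 and 243 CPM in co-culture libraries 2 and 4, whereas libraries 1, 3 and 5 had 2447, 2304 and 2432 CPM and the mono-cultures 1111 to 1962 CPM. Col5a2, the partner of Col5a1 in type V, had 1.73 and 3.20 CPM in libraries 2 and 4, whereas the other 3 had 39.3 to 95.9 CPM. Col8a1, of the endothelial and vascular type VIII, had 5.44 and 0.291 CPM, whereas the others had 112 to 272 CPM, and Col3a1 had 4119.7 and 3824 CPM, whereas the others had 12570.2 to 17308 CPM. Of 34 members with a mean of at least 20 CPM in the group, libraries 2 and 4 were both below the others in 12 and both above them in 6, beside 18.3% and 32.9% of all 6194 genes with such a mean. Mono-culture libraries 2 and 4 were also the lowest of their group for Col5a2, at 14.6 and 8.51 CPM, whereas libraries 1, 3 and 5 had 39.5 to 80.9 CPM. Without co-culture libraries 2 and 4, Lox had a log2 fold change of 0.67 (edgeR adjusted p = 0.0571), in place of 0.04 ± 0.45 with all libraries.

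In fat fibroblasts, 0 of 45 members were called, beside 0.201% of all genes (0.0403% higher, 0.161% lower); 5 members had an unadjusted p under 0.05, beside 9.89% of all genes, and DESeq2 called 1, Loxl4, beside 1.04% of all genes. Only 2 mono-culture libraries entered, and endothelial markers were higher in them, at 1.70 to 3.34 mean log2 CPM in fat co-cultures against 4.11 to 4.76 in fat mono-cultures; their part in the values was not tested. Col1a1 had 745, 859.7 and 687 CPM in fat co-cultures, against 409 and 424 CPM in mono-cultures, a log2 fold change of 0.88 ± 0.28 (edgeR adjusted p = 0.247). Loxl4, a lysyl oxidase family member at low level, had 7.22, 8.83 and 10.9 CPM against 3.76 and 3.65 CPM (1.28 ± 0.34, adjusted p = 0.129). Col5a1 and P4ha2 likewise did not overlap between cultures, at 358 ± 53.4 against 228 ± 6.06 CPM and 245 ± 40.5 against 153 ± 38.8 CPM. In groups this small such separation is only a description. Type IV chains Col4a1 (0.11 ± 0.48) and Col4a2 (0.10 ± 0.34) and lysyl oxidases Lox (0.32 ± 0.65) and Loxl1 (-0.15 ± 0.18) overlapped between the fat cultures. Plod2 had 471, 453 and 467 CPM in fat co-cultures, below the 499.6 and 790.0 CPM of mono-cultures (-0.48 ± 0.40, adjusted p = 0.796).

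By the interaction test, which sets the co-culture response of one organ against that of another, 0 of 45 members were called in each contrast, beside 0.0966% of all genes called for lung minus mammary (0.0886% higher, 0.00805% lower), 0.0% for fat minus lung and 0.0242% for fat minus mammary, all of them lower. Of the 45 members, 7, 6 and 4 had an unadjusted p under 0.05 in these contrasts by edgeR, beside 6.06%, 6.55% and 7.28% of all genes, and DESeq2 called 0 members in each. The smallest adjusted p in each was 0.492 for Pcolce (lung minus mammary, 0.67 ± 0.22), 0.59 for Plod3 (fat minus lung, -0.56 ± 0.21) and 0.365 for Plod2 (fat minus mammary, -1.80 ± 0.49). The calls in lung and mammary and their absence in fat are therefore not shown to differ between the organs.

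**Figure D2:**
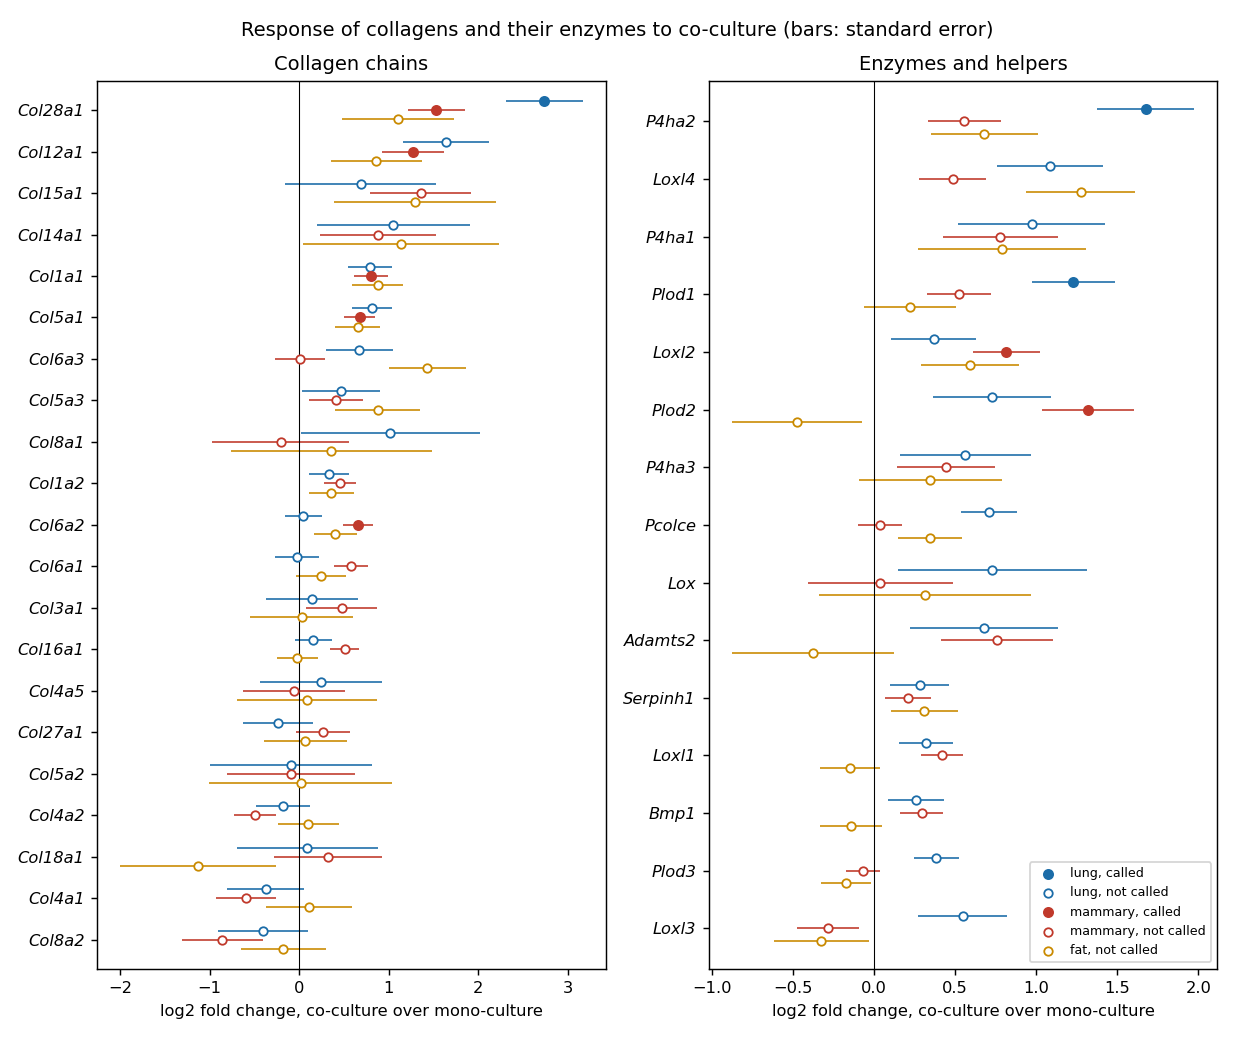
Log2 fold changes of co-culture over mono-culture with standard errors for the members with at least 20 CPM in either culture of any organ, with collagen chains on the left and enzymes and helpers on the right. Filled points passed the adjusted threshold of 0.05: Col28a1, P4ha2 and Plod1 in lung and 7 members in mammary fibroblasts; most open points lie right of 0.

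More members were called between organs than between cultures. In co-culture, Col1a1, Col1a2, Col5a1, Col6a1, Col6a2, Col6a3 and most enzymes were lower in lung and in fat than in mammary fibroblasts, Col4a1 and Col4a2 were higher in both, and Col8a2 was higher in fat than in lung fibroblasts. Between co-cultured lung and mammary fibroblasts 5 members were higher and 22 lower in lung, or 60.0% of the 45, beside 32.2% of all genes (16.9% higher, 15.3% lower). Between co-cultured fat and mammary fibroblasts 4 were higher and 25 lower in fat, or 64.4%, beside 25.4% of all genes (13.3% higher, 12.0% lower), and between co-cultured fat and lung fibroblasts 6 were higher and 4 lower in fat, or 22.2%, beside 9.41% (4.26% higher, 5.15% lower). Mono-cultures gave 5 higher and 24 lower in lung against mammary (40.3% of all genes called, 21.2% higher and 19.1% lower). They gave 5 higher and 19 lower in fat against mammary (23.3% of all genes, 14.1% higher and 9.20% lower), and 10 higher and 3 lower in fat against lung (9.28% of all genes, 5.48% higher and 3.80% lower). Comparisons that use the same mammary libraries are not independent of each other. The 14 non-collagen fibroblast markers were also highest in mammary fibroblasts. They averaged 8.34, 8.53 and 9.25 log2 CPM in lung, fat and mammary co-cultures, and 7.69, 8.58 and 9.02 in mono-cultures. Whether the organ differences are particular to collagen genes was not tested.

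Chains of types I and V and of type VI were among those called lower in lung and fat, with exceptions in types III and V. Col1a1 had 395, 933 and 759 CPM in lung co-cultures and 687 to 859.7 CPM in fat co-cultures, all below the lowest mammary co-culture library at 3069 CPM. The log2 fold change was -2.31 ± 0.24 for lung over mammary (edgeR adjusted p = 6.87e-07) and -2.17 ± 0.24 for fat over mammary (adjusted p = 2.48e-06). Col5a1 gave -2.52 ± 0.22 and -1.96 ± 0.21 in the same comparisons, and Col6a3 -3.48 ± 0.38 and -2.46 ± 0.36. Col1a2 gave -0.87 ± 0.21 (adjusted p = 0.00327) and -1.09 ± 0.21 (adjusted p = 0.00077). Col3a1 averaged 4508 ± 1782 CPM in lung and 2848 ± 247 CPM in fat co-cultures, against 10479 ± 6175 CPM in mammary co-cultures, and was called lower in fat (-1.88 ± 0.50, adjusted p = 0.00928) but not in lung (-1.22 ± 0.48, adjusted p = 0.0605). In mono-cultures it was called in neither organ (adjusted p = 0.0791 in fat and 0.149 in lung). Col5a2 was not called in either organ, at 72.1 ± 23.0 CPM in lung and 54.2 ± 15.7 CPM in fat co-cultures, against 1.73 to 95.9 CPM in mammary co-cultures (0.83 ± 0.81 and 0.42 ± 0.82). The log2 ratio of Col1a1 over Col1a2 therefore ran from -3.88 to -2.42 in lung co-cultures and from -2.20 to -1.17 in mammary co-cultures; capture at each 3-prime end is not known, so only its difference between groups is read.

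Every enzyme and helper called between lung or fat and mammary co-cultures was lower outside the mammary fat pad, 10 of 15 in lung and 9 of 15 in fat. P4ha2 had 138 to 200.1 CPM in lung co-cultures and 203 to 284 CPM in fat co-cultures, against 839 to 1309 CPM in mammary co-cultures (lung over mammary -2.58 ± 0.29, edgeR adjusted p = 1.53e-06). Loxl3 averaged 10.8 ± 0.267 CPM in lung co-cultures and 11.9 ± 3.06 CPM in fat, against 64.4 ± 14.9 CPM in mammary co-cultures (-2.58 ± 0.25, adjusted p = 2.84e-07, and -2.43 ± 0.25, adjusted p = 1.07e-06). An exon of Htra2 lies on the opposite strand near the 3-prime end of Loxl3, and the use of strand in counting is not given in the sources used here. Pcolce averaged 742 ± 38.0 CPM in lung and 910.0 ± 24.1 CPM in fat co-cultures, against 2106 ± 281 CPM in mammary co-cultures, and Serpinh1 1988 ± 208 and 2517 ± 162 CPM, against 4127 ± 504 CPM. Plod1 was called lower in lung than in mammary fibroblasts in both cultures, by -1.21 ± 0.24 in co-cultures and -1.92 ± 0.24 in mono-cultures. Plod2 was an exception in fat mono-cultures, where it was higher than in mammary mono-cultures (1.30 ± 0.35, adjusted p = 0.0108), a call that was lost without the unnumbered fat mono-culture library.

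Col4a1 and Col4a2 ran the other way. Col4a1 had 971, 805 and 1263 CPM in lung co-cultures and 1665, 1732 and 1530.0 CPM in fat co-cultures, against 334, 262, 234, 203 and 134 CPM in mammary co-cultures. The log2 fold changes over mammary were 2.12 ± 0.38 (edgeR adjusted p = 0.00027) and 2.81 ± 0.38 (adjusted p = 2.58e-05). Col4a2, its partner chain, gave 1.59 ± 0.26 and 2.10 ± 0.27. Both genes lie head to head on chromosome 8, where RefSeq places Col4a1 at 11198423 to 11312889 on the minus strand and Col4a2 at 11312805 to 11449287 on the plus strand, so that their annotated 5′ ends overlap. The log2 ratio of Col4a1 over Col4a2 ran from -1.13 to 0.12 over all 21 libraries, with medians of -0.28 in lung, -0.16 in fat and -0.91 in mammary co-cultures. That of Col6a1 over Col6a2 ran from -1.55 to 0.17 and that of Col1a1 over Col1a2 from -3.88 to -1.17 over the same libraries. Col4a5, a chain of specialised basement membranes, had 82.9 to 117 CPM in lung co-cultures, against 0 to 32.9 CPM in mammary co-cultures (2.48 ± 0.62, adjusted p = 0.00491). The libraries rich in Col4a1 and Col4a2 were also those rich in the 6 mesothelial markers, given above. These markers averaged 7.79 and 7.63 log2 CPM in lung and fat co-cultures, where Col4a1 averaged 1013 and 1642 CPM. Other lists differed too. The 3 epithelial markers present averaged 5.43, 5.03 and -0.21 log2 CPM in lung, fat and mammary co-cultures. Pericyte and smooth muscle markers summed to 378 to 422, 1448 to 2645 and 128 to 435 CPM. Whether mesothelial or other cells carry the Col4a1 and Col4a2 mRNA was not tested.

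Some minor chains set lung and fat apart. Col8a2, of the hexagonal type VIII lattice, had 77.6, 37.8 and 85.0 CPM in fat co-cultures, against 4.78, 4.16 and 4.16 CPM in lung co-cultures (3.93 ± 0.50, edgeR adjusted p = 5.34e-05), and 104 and 47.2 CPM in fat mono-cultures, against 3.30 to 8.34 CPM in lung mono-cultures. Col24a1, a minor fibrillar chain, had 23.0, 8.38 and 22.9 CPM in fat co-cultures, against 1.14, 1.71 and 0.26 CPM in lung co-cultures (4.24 ± 0.77, adjusted p = 0.00164). Col28a1 was lower in fat than in lung co-cultures (-3.45 ± 0.46, adjusted p = 8.41e-05). Col6a4 and Col6a5, alternative type VI chains that lie next to each other on chromosome 9, had 3.77 to 5.00 and 2.47 to 3.18 CPM in lung co-cultures. In fat co-cultures Col6a4 had at most 0.223 CPM and Col6a5 had 0 counts in each of the 3 libraries, where 3 counts would be 0.668 to 0.803 CPM. Without the unnumbered fat library, the mono-culture comparison of fat with lung kept 4 of its 13 calls and lost Bmp1, Col27a1, Col6a5, Loxl3, P4ha2, P4ha3, Pcolce, Plod1 and Plod3.

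**Figure D3:**
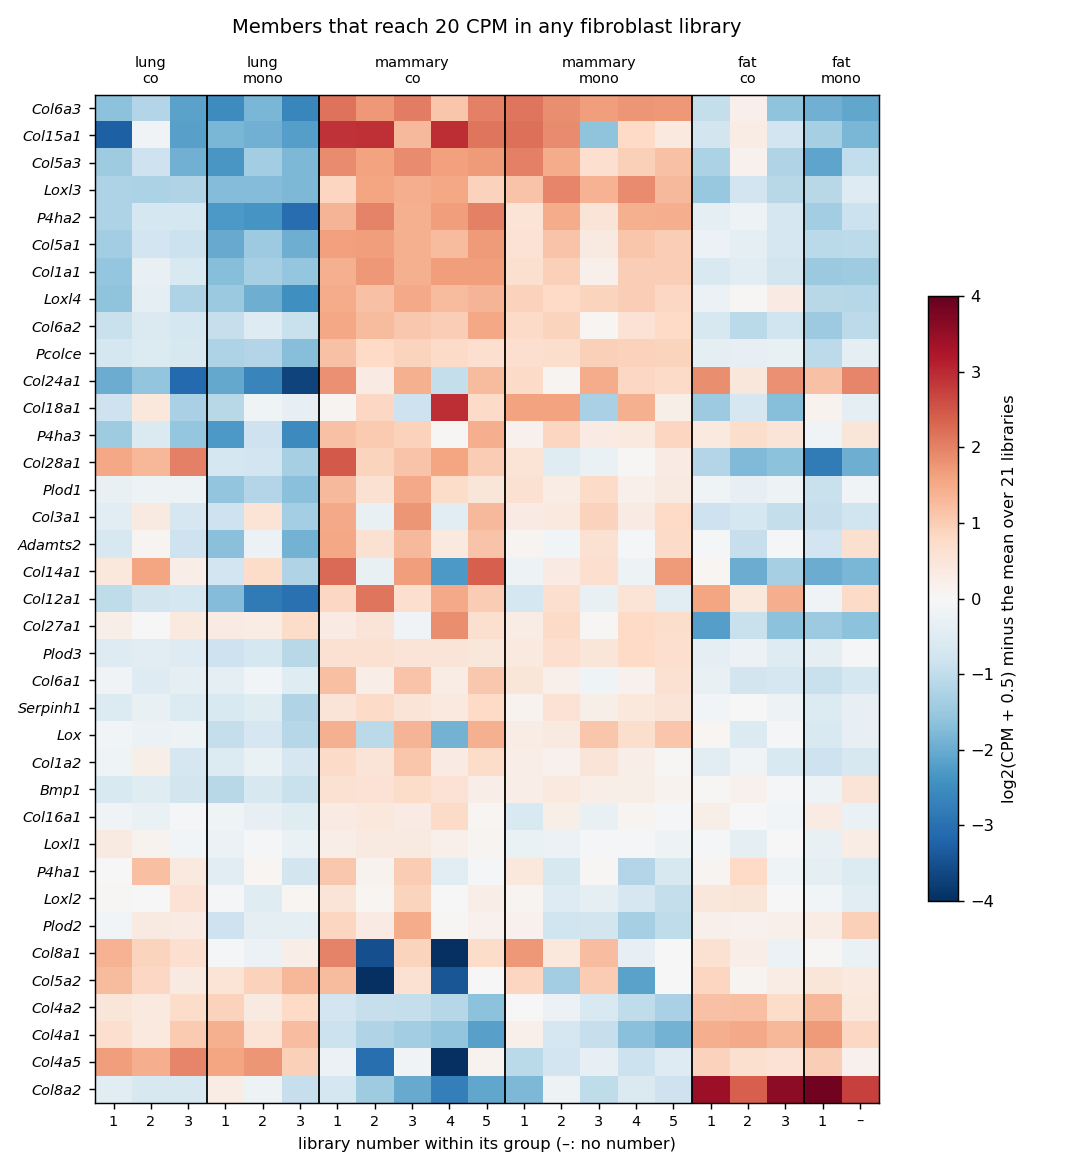
Log2(CPM + 0.5) of members that reach 20 CPM in any fibroblast library, each minus its own mean over the 21 libraries, with rows ordered by the difference of mammary from the other libraries. Mammary columns are red for Col6a3, Col5a1, Col1a1 and P4ha2 and blue for Col4a1 and Col4a2, fat columns are red for Col8a2, and mammary co-culture libraries 2 and 4 are blue for Col8a1, Col5a2 and Lox.

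Macrophages had their own hydroxylases. Plod1 had 503, 367, 509.5 and 569 CPM in macrophages co-cultured with fat fibroblasts, 464, 450.5, 439 and 471 CPM with lung, 474, 482, 241 and 550.1 CPM with mammary, and 333, 305, 272 and 399 CPM at day 0. Co-cultured fat, lung and mammary fibroblasts had means of 361, 363 and 841 CPM. In macrophages it was called after fat co-culture (0.57 ± 0.19, edgeR adjusted p = 0.0311) and not after lung (adjusted p = 0.0733) or mammary co-culture (adjusted p = 0.125), and these responses were not tested against each other. The fat call was lost without day 0 library 1, 2 or 3 or fat library 1, 3 or 4, and the lung comparison called Plod1 with the replicate number as a block, without day 0 library 4 and in a fit of its 2 groups alone. Without mammary library 3 the mammary comparison called it too. Plod3, which also glycosylates hydroxylysine, was called higher with each organ (0.53 ± 0.12, 0.58 ± 0.12 and 0.47 ± 0.12 with fat, lung and mammary).

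P4ha2 had 44.2 to 61.2 CPM with fat fibroblasts, 55.7 to 64.0 CPM with lung and 46.7 to 80.9 CPM with mammary, against 9.44 to 13.5 CPM at day 0. No co-cultured library overlapped day 0. The log2 fold changes were 2.14 ± 0.17 (edgeR adjusted p = 9.56e-09), 2.33 ± 0.17 (adjusted p = 4.75e-09) and 2.43 ± 0.17 (adjusted p = 1.96e-09). P4ha1 rose likewise, by 1.84 ± 0.21, 1.53 ± 0.22 and 2.05 ± 0.21. In macrophages co-cultured with fat, lung and mammary fibroblasts, P4ha2 amounted to 21.6%, 33.6% and 6.04% of its level in those fibroblasts, and P4ha1 to 89.1%, 56.9% and 92.1%. The non-collagen fibroblast markers with at least 20 CPM in fibroblasts amounted to 0.529% to 3.79% in fat (12 markers), 0.277% to 5.43% in lung (13 markers) and 0.275% to 3.37% in mammary co-cultures (13 markers).

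A pair of collagen chains was lower after co-culture. Col18a1, a basement membrane collagen that yields endostatin, had 40.8 to 58.5 CPM with fat fibroblasts, 33.2 to 49.4 CPM with lung and 71.7 to 105 CPM with mammary, against 209, 112, 132 and 188 CPM at day 0. The log2 fold changes were -1.78 ± 0.19, -2.08 ± 0.20 and -0.90 ± 0.19 (edgeR adjusted p = 9.77e-07, 2.2e-07 and 0.00123). Col4a5 had 0.917 to 1.52, 2.02 to 2.67 and 0.479 to 0.894 CPM in the same co-cultures, against 3.91 to 8.57 CPM at day 0, with adjusted p of 2.06e-05, 0.00197 and 1.39e-06.

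**Figure D4:**
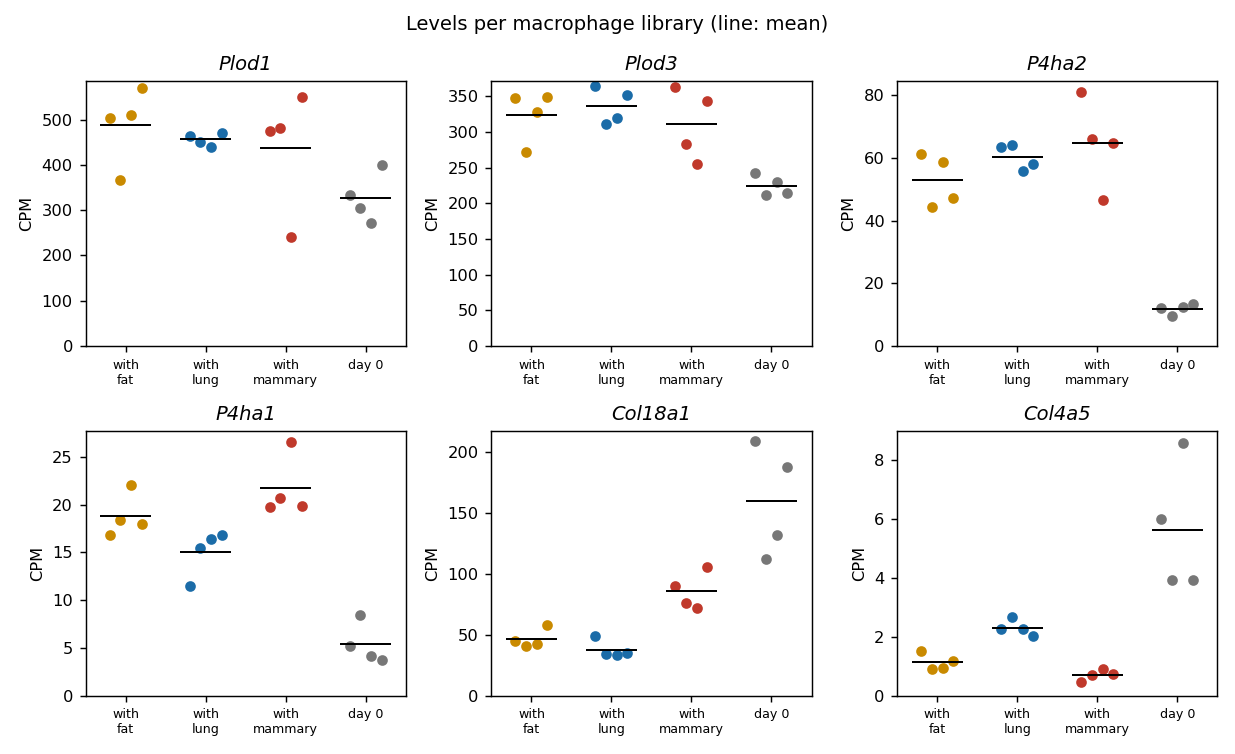
CPM of 6 members in each of the 16 macrophage libraries after co-culture with fat, lung or mammary fibroblasts and at day 0, with a line at each mean and axes from 0. P4ha2 and P4ha1 lie above day 0 in every co-cultured library, and Col18a1 and Col4a5 lie below it.

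Fibrillar chains and most helpers were near 0 in day 0 macrophages and present after co-culture, together with other fibroblast transcripts. Of the 30 members tested, 25 were higher and 2 lower after fat co-culture, beside 15.8% and 14.4% of all 10295 genes (30.2% in all). After lung co-culture 23 were higher and 2 lower, beside 14.6% and 13.2% (27.8%), and after mammary co-culture 25 and 2, beside 14.4% and 11.8% (26.1%). Most of these members pass the filter on low counts only through the co-cultured groups, so the counts are a description. Col1a2 had 53.0 to 92.0 CPM with fat fibroblasts, 28.1 to 64.8 CPM with lung and 128 to 148 CPM with mammary, against 0.828 to 3.14 CPM at day 0. Serpinh1 had 19.0 to 44.6, 19.0 to 25.2 and 31.9 to 49.3 CPM, against 0.207 to 0.418 CPM at day 0.

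The 13 non-collagen fibroblast markers moved with them, at 2.70 to 3.63, 2.24 to 2.97 and 3.30 to 3.71 mean log2 CPM after fat, lung and mammary co-culture, against -0.35 to 0.33 at day 0, where Mfap4 and Dpt were at 0. As a share of the level in the partner fibroblasts, the members with at least 20 CPM there had a median of 1.52%, 0.957% and 1.29% in fat, lung and mammary co-cultures, beside 1.74%, 1.03% and 0.925% for the markers. Col1a2 lay at 1.39%, 0.783% and 1.27%. Members above the highest marker numbered 5 of 28 in fat (P4ha2, Col18a1, P4ha1, Plod3 and Plod1), 7 of 29 in lung and 11 of 31 in mammary co-cultures. Plod1, Plod3, P4ha1, P4ha2 and Col18a1 were among them each time. Col14a1 averaged 15.1, 4.57 and 1.77 CPM in macrophages with fat, lung and mammary fibroblasts, against 0.211 CPM at day 0. In those fibroblasts it averaged 9.74, 32.8 and 51.2 CPM, so in fat it fell below the cut of 20 CPM. How much of the fibrillar collagen mRNA in sorted macrophages came from fibroblasts was not tested.

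**Figure D5:**
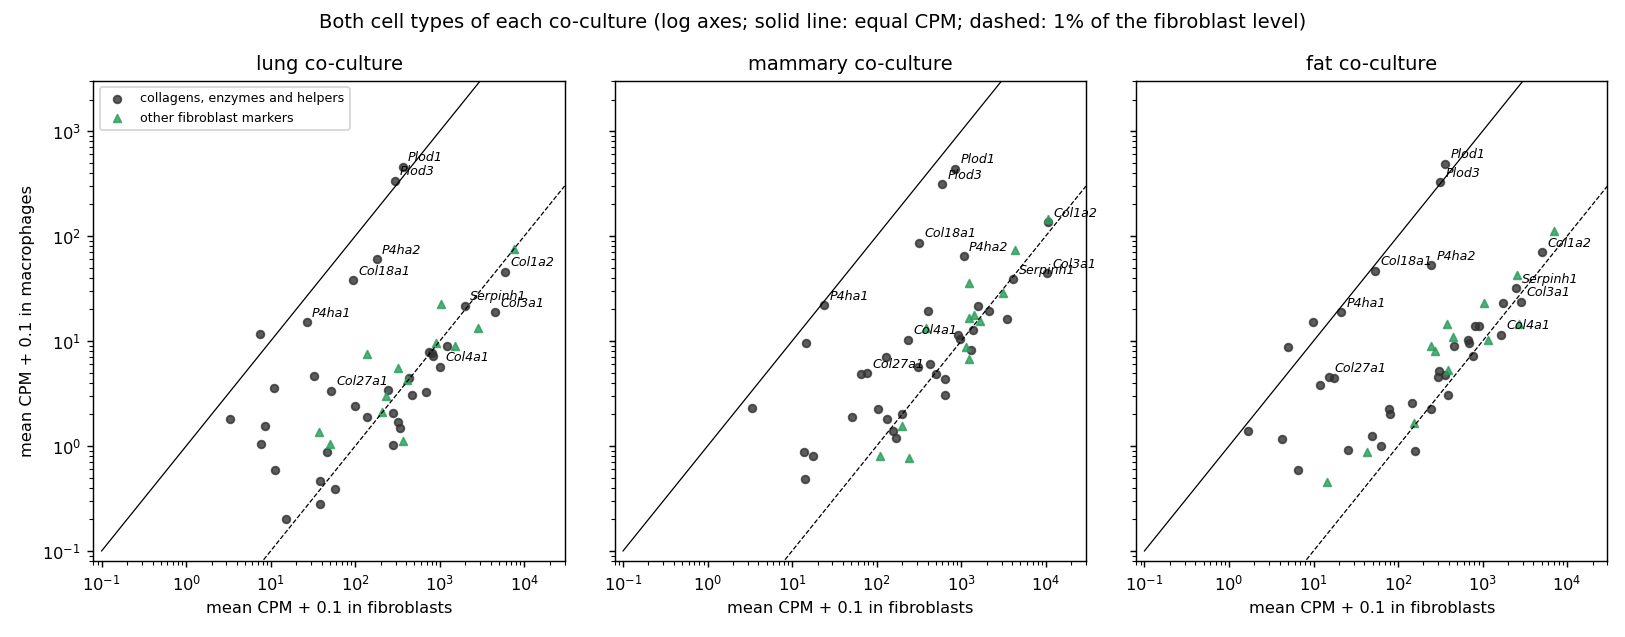
Mean CPM + 0.1 of each member (circles) and each non-collagen fibroblast marker (triangles) in macrophages against that in fibroblasts of the same co-culture, on log axes, with a solid line at equal CPM and a dashed line at 1% of the fibroblast level. Col1a2, Serpinh1 and the markers lie near the dashed line, whereas Plod1 and Plod3 lie near the solid line and P4ha1, P4ha2 and Col18a1 between the lines or close to the solid one.

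A list of 35 further genes of the collagen pathway (receptors, degrading proteases, other chaperones and regulators) was used for context; 33 were tested in fibroblasts. After co-culture, 0 were called in lung (1.31% of all genes) and 0 in fat (0.201% of all genes). In mammary fibroblasts 0 were higher (2.36% of all genes) and 3 lower (1.29% of all genes). Those were Ctsk, a collagen-degrading cathepsin, with 217 ± 56.8 CPM in co-cultures and 501 ± 93.7 CPM in mono-cultures (-1.21 ± 0.25, edgeR adjusted p = 0.0101), Tgfb1, a growth factor that induces collagen genes, with 49.6 ± 10.7 and 89.0 ± 15.2 CPM (-0.84 ± 0.17, adjusted p = 0.0075), and Mmp13, a collagenase, with 2.33 ± 3.85 and 26.3 ± 26.9 CPM (-3.54 ± 0.95, adjusted p = 0.0453). In macrophages 13, 12 and 13 of 23 tested were higher and 1 lower after fat, lung and mammary co-culture. Of all genes, 15.8%, 14.6% and 14.4% were higher and 14.4%, 13.2% and 11.8% lower. Some listed genes, such as Fkbp10 and Itga11, were near 0 at day 0, so these counts too are a description. How much of them came from fibroblast RNA was not tested. Mmp14, a membrane-bound collagenase called higher, averaged 65.0 CPM with fat, 30.1 CPM with lung and 161 CPM with mammary fibroblasts, against 4.83 CPM at day 0 (3.73 ± 0.27, 2.63 ± 0.27 and 5.04 ± 0.27). Ctsk was the lower one with each organ, at 20.2 CPM with fat, 24.2 CPM with lung and 26.2 CPM with mammary fibroblasts, against 70.6 CPM at day 0 (-1.80 ± 0.20, -1.54 ± 0.19 and -1.42 ± 0.19).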

How the data were processed

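Reads were processed before deposit with bcl2fastq, STAR 2.4.2a and HTSeq on mm10, per the submitters' processing notes; which annotation was counted, whether strand was used and how any molecular identifiers were treated is not given in the sources used here. As deposited by the authors, the values are raw counts per gene, 1 table for fibroblasts and 1 for macrophages. Levels across these tables are only set side by side. Nothing in the labels names separate animals for every replicate, so p-values measure the spread between these samples.

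Each table was fitted once over all its groups with edgeR 4.0.16 (R 4.3.3; robust quasi-likelihood test, TMM scaling, filterByExpr with a minimum count of 10). P-values were adjusted by Benjamini-Hochberg over all 12421 fibroblast or 10295 macrophage genes tested, a gene with adjusted p under 0.05 was called, and SE is the absolute log2 fold change over the square root of F. CPM are counts scaled to one common, TMM-adjusted library total. The pipeline was tested on simulated data with 200 changed genes, drawn with a spread common to all genes and without pairing or outlying libraries. That test does not give the error rate in these data. DESeq2 1.42.0, other scaling, no filter, fits of the compared groups alone, replicate blocks and fits without single libraries were tried. The members and gene lists were chosen with earlier results of these data known. Named were called members of at least 20 CPM and a list of main chains and enzymes in each co-culture comparison. In organ comparisons up to 10 called members by adjusted p were named, and in macrophages up to 8 plus those lower. Some genes outside that rule were chosen after their values were seen. Among them were Col12a1 in lung and Plod1, Plod3, P4ha1 and Col14a1 in macrophages. In organ comparisons they included Col3a1, Col5a2, Col8a1, Col4a1, Col4a2, Col4a5, Col1a2, Col6a3, Serpinh1, Plod1 and Plod2.

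Deviations from the group means of same-numbered mammary libraries correlated by 0.336 to 0.646 in all 5 pairs, and those of differently numbered ones by -0.621 to 0.591. Co-culture libraries 2, 3, 4 and 5 each correlated most with the mono-culture library of their own number (0.555, 0.646, 0.438 and 0.336). Co-culture library 1 correlated more with mono-culture library 3 (0.591) than with mono-culture library 1 (0.415). Pairing of the mammary samples by number is therefore not settled, and the block is given as an alternative. One fat mono-culture column carries no number of a sample and entered as a replicate of its group. No replicate pair agreed within sampling noise: chi-square per degree of freedom was 3.47 to 72.2.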

Additional observations from a re-analysis of the deposited data

Results flagged for a closer look

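Of 91 combinations of a member and a group of 4 or 5 libraries in which it averaged at least 20 CPM, 5 held a library far from the others of its group; chance gives about 1 in 20. The gap to the nearest library, as a share of the group's range, was 0.719 to 0.886 in these 5. Col18a1 had 963 CPM in mammary co-culture library 4, where the other 4 had 68.9 to 217 CPM, and Col27a1 had 160.4 CPM in the same library, where the others had 39.8 to 68.9 CPM. That library also stood apart from libraries 1, 3 and 5 over all genes. Plod2 had 461 CPM in mammary mono-culture library 1, where the others had 162 to 246 CPM; it is the mono-culture library with the highest macrophage markers. Among macrophages, Col18a1 had 49.4 CPM in the first library co-cultured with lung fibroblasts, where the others had 33.2 to 35.0 CPM, and P4ha1 had 26.6 CPM in the third library co-cultured with mammary fibroblasts, where the others had 19.8 to 20.7 CPM.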

How the results depend on the processing

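Of the named members' values under all alternatives, 65 lost the call, 19 gained it and 2044 did neither, including any without an adjusted p. Of the values with an adjusted p that the main fit or the alternative called, 0 changed direction. Direction was not compared where neither fit called the gene. Of the counts of members called, 190 stayed within 1.5 times and 14 moved. In lung, 3 calls became 7 with DESeq2 and 6 in a fit of the 2 lung groups alone, and leaving out 1 library gave 1 to 4. With the replicate block lung gave 7 calls, adding Col12a1, Col5a1, P4ha1 and Pcolce, beside 2.95% of all genes. Deviations of same-numbered lung libraries correlated by 0.0689 to 0.430, and those of differently numbered ones by -0.473 to 0.107. Pairing of the lung samples by number is therefore not settled, and the block is given as an alternative. In mammary fibroblasts, 7 calls became 12 with the replicate block and 1 in a fit of the 2 mammary groups alone. Leaving out 1 mammary library gave 2 to 7 calls, and leaving out libraries 2 and 4 of both cultures, chosen after seeing the data, gave 2. In fat, 0 calls became 1 with DESeq2. Leaving out 1 library gave 4 to 13 calls between fat and lung mono-cultures; where 1 fat mono-culture library was left, it was assumed to vary like the other groups. No paired analysis of fat fibroblasts was possible because their co-cultures and mono-cultures share only 1 number. Same-numbered macrophage libraries correlated by -0.185 to 0.372, so the numbers are not taken as a pairing, and the replicate block gave 27, 26 and 27 calls in place of 27, 25 and 27 with fat, lung and mammary fibroblasts. The block changed no other count by over 1.5 times. The cause of these changes was not tested. Counts of 3 in a library are 0.668 to 0.803 CPM in fat co-cultures, so levels near this are not resolved.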
